A study of Mus musculus with 36 samples.

Results

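Microglia that passed a CD11c-negative sort gate were compared between hippocampus and cortex of the same amyloid-forming mice. The libraries were chosen by their titles, which give the strain as APP, the region, the gate and an animal number from 1 to 4. They were 12 of the 36 libraries of the series, 6 from hippocampus and 6 from cortex, and they held 881 barcodes. Of these, 880 were kept as cells because they had 200 genes or more and no more than 20% of their counts from mitochondria, 426 from hippocampus and 454 from cortex, out of 2657 kept cells in the whole series. Libraries of the same animal and region were summed, which gave 4 replicates a region, and hippocampus was paired with cortex by the animal number.

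The mice were male, aged 6 months, and carried the APPswe and PSEN1dE9 transgenes (APP/PS1), a mutant human amyloid precursor protein and an exon-deleted presenilin 1, both driven by the mouse prion protein promoter. The CD11c-negative cells of the control mice, called WT in the titles, are used only where a region difference is compared between the strains. They comprised 6 hippocampal and 5 cortical libraries, also summed to 4 replicates a region. All cells were released mechanically in the cold and sorted as DAPI-negative, DRAQ5-positive, CD11b-high and CD45-intermediate single cells into multiwell plates, and sequenced with a Smart-seq2-based protocol. CD11c is the protein of Itgax, an integrin that a subset of microglia carries around plaques, so the gate leaves the microglia without it.

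Microglia are the resident macrophages of the brain. In the healthy tissue they depend on the receptor Csf1r, survey their surroundings with ramified processes, and carry a set of sensing genes such as P2ry12, Cx3cr1 and Tmem119. They take up and degrade debris through phagocytic receptors and lysosomes, and export cholesterol through ABC transporters. Cortex and hippocampus are the regions in which this strain deposits amyloid, and microglia that touch a plaque shift to another programme with lower levels of the homeostatic genes and higher levels of lysosomal and lipid genes.

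Levels of single genes below are CPM, counts scaled to a common replicate total with TMM adjustment, given for animals 1, 2, 3 and 4 in that order. Sums over gene lists are CPM of the raw replicate total, without that adjustment. The TMM factors were 1.049 to 1.121 in hippocampus and 0.9117 to 0.9625 in cortex. Relative to cortex, list sums therefore stand higher in hippocampus than they would with TMM. Fold changes are log2 hippocampus over cortex ± SE. They were tested with the quasi-likelihood method of edgeR, the animal being a block, and p was adjusted by Benjamini-Hochberg over all genes tested. A gene is called at an adjusted p under 0.05. The hippocampal replicates held 1127618 to 3576536 counts and the cortical ones 1037425 to 4406184. No 2 of the 12 libraries were copies of each other (0 of 66 pairs identical, lowest chi-square per degree of freedom 37.7). All libraries drew on 1 set of 83 well barcodes, so any 2 of these libraries shared 62 to 78 barcode sequences. The genotype tag of 6 of the 12 libraries reads wt, against their titles, and gives animals 1, 2 and 3 a different genotype in each region. The first number in the titles is 3 to 6 for the cortical and 9 or 10 for the hippocampal libraries. The labels do not say what it stands for, and whatever it marks cannot be told apart from the region.

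The sorted cells carried the markers of microglia in both regions. Tmem119 stood at 2243, 2545, 2543 and 2799.6 CPM in hippocampus and at 1841, 1975, 1719 and 1435 CPM in cortex. The list of border-associated macrophage markers summed to 0 to 12.1 CPM in hippocampus and 0 to 20.7 CPM in cortex, and 5 of its 8 genes had 0 counts in all replicates. Neutrophil markers summed to at most 0.305 CPM and monocyte markers to at most 57.3 CPM. Itgax, the gene of the gate, stood at 0, 32.7, 2.42 and 0.849 CPM in hippocampus and 0, 0, 0.938 and 4.27 CPM in cortex, 58 and 6 counts in all. It was near 0 in 7 of the 8 replicates, with hippocampus of animal 2 apart.

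Of 12352 genes tested, 25 were called (0.202%), and all 25 were lower in hippocampus. No gene passed the threshold in the other direction in this edgeR test, while at an unadjusted p under 0.05 there were 297 genes higher and 817 lower. Each of the 25 was lower in 4 of 4 animals with replicate values that did not overlap, which held for 705 of the genes tested in that direction (5.71%) and for 298 in the other (2.41%). Without the animal block the same test called 234 of 9099 genes (2.57%), 19 higher (0.209%) and 215 lower (2.36%), and these included 24 of the 25. With the block and 1 animal left out it called 12 genes without animal 1 and 0 without animal 2, 3 or 4, and DESeq2 with the block called 1016, 357 higher and 659 lower. The 25 genes fell into groups at different levels: 17 had at least 500 CPM in cortex, and 8 had less and were nearly absent from hippocampus.

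**Figure D1:**
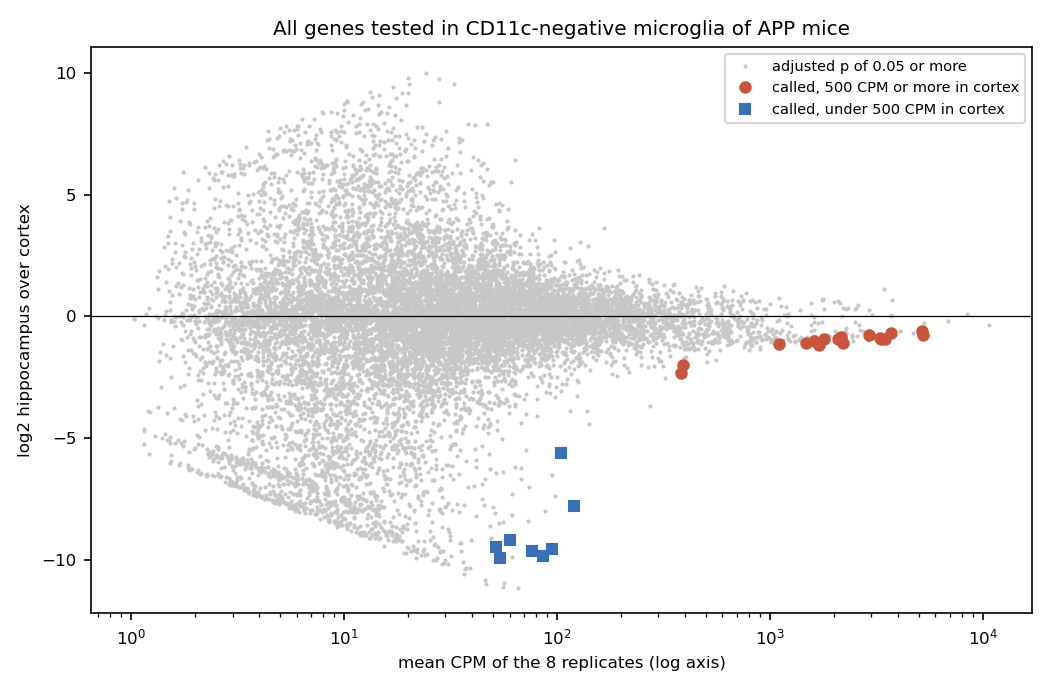
Log2 fold change of hippocampus over cortex (vertical axis) against the mean CPM of the 8 replicates (horizontal log axis) for the 12352 genes tested in CD11c-negative microglia of APP mice. Red circles are the 17 called genes with 500 CPM or more in cortex, blue squares the 8 with less, and all 25 lie below the line of no change.

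The 17 abundant genes fell by a median of 0.94 on the log2 scale, from −0.61 to −2.32. The largest change belonged to Sdc4 (chromosome 2, 164424247 to 164443887 on GRCm38), which encodes syndecan-4, a cell surface heparan sulfate proteoglycan. It stood at 533, 626, 618 and 773 CPM in cortex and 112, 91.2, 146 and 169.8 CPM in hippocampus, so the highest hippocampal value lay far under the lowest cortical one. Its log2 fold change was −2.32 ± 0.29 (edgeR adjusted p = 0.0246). Agap2, a GTPase-activating protein for Arf proteins, followed with 373, 526, 663 and 936 CPM in cortex and 109.6, 159, 116 and 240.3 CPM in hippocampus (log2 −1.99 ± 0.29, edgeR adjusted p = 0.0444). Agap2 was the member with the widest spread among the cortical replicates relative to its mean, and it was not past the threshold once cells with markers of other cell types were left out (log2 −1.15, edgeR adjusted p = 0.785).

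Several of the abundant genes encode signalling molecules. Gsk3b (chromosome 16, 38089001 to 38246084), the kinase that phosphorylates beta-catenin and tau, stood at 2469.8, 2528, 2068 and 2384 CPM in cortex and 1008, 1154, 1087 and 923 CPM in hippocampus (log2 −1.18 ± 0.15, edgeR adjusted p = 0.0246). Every hippocampal replicate held about as much as the others, and less than any cortical one. Notch2 (chromosome 3, 98013527 to 98150361), a receptor of Notch ligands, stood at 4368, 4349.7, 3572 and 4807 CPM in cortex and 2065, 1944, 2378 and 2867 CPM in hippocampus (log2 −0.89 ± 0.13, edgeR adjusted p = 0.0444). The gap between the lowest cortical and the highest hippocampal value of Notch2 was smaller than for Gsk3b, and animal 3 had the lowest cortical value of both genes. Bmp2k, a kinase of endocytosis and autophagy, had the smallest change of the 17, with 6514, 6335, 5567 and 6556 CPM in cortex and 3799, 3913, 3897 and 4762 CPM in hippocampus (log2 −0.61 ± 0.09, edgeR adjusted p = 0.0488). Pitpnc1, which carries phosphatidylinositol between membranes, had a log2 fold change of −0.91 ± 0.14 (edgeR adjusted p = 0.0488).

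**Figure D2:**
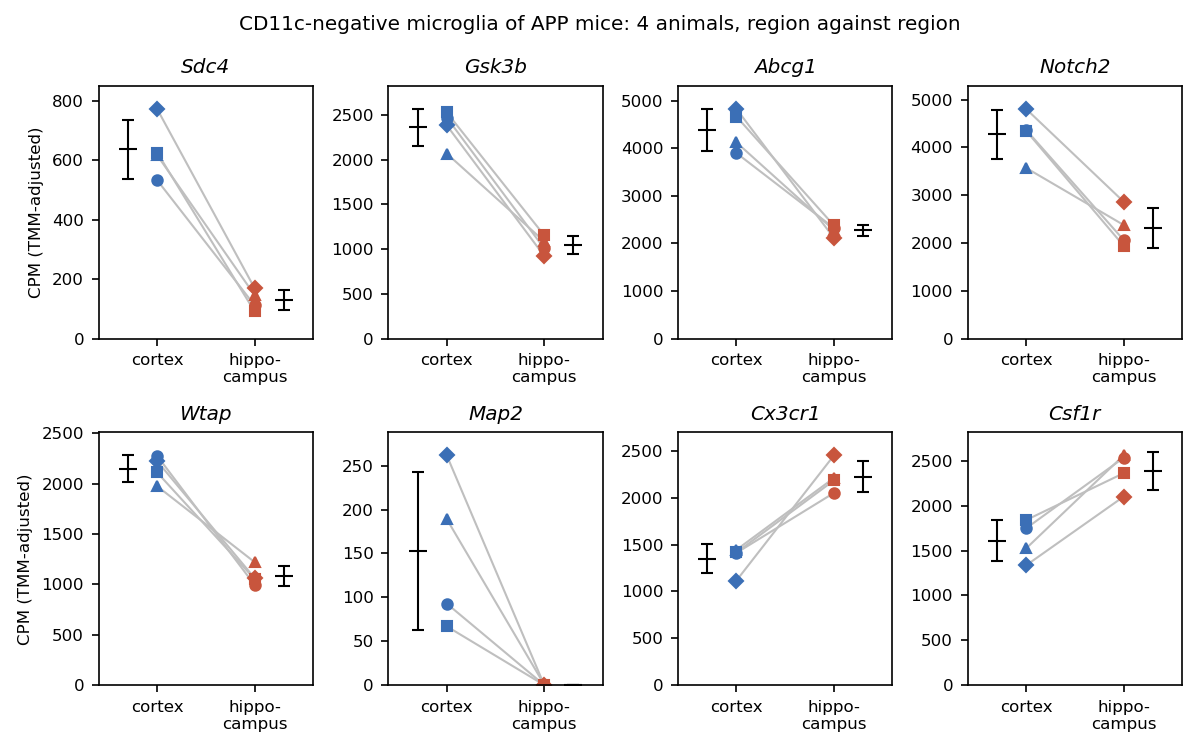
CPM of 8 genes in the cortex (blue) and hippocampus (red) of the 4 animals, each animal with its own symbol and a grey line, and the mean ± SD of each region in black. Sdc4, Gsk3b, Abcg1, Notch2, Wtap and Map2 were lower in hippocampus in every animal, and Cx3cr1 and Csf1r, which did not pass the threshold, had higher values there in every animal.

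Genes of the cytoskeleton and of lipid export were among the 17 as well. Actr2, a subunit of the Arp2/3 complex that nucleates branched actin, stood at 3117, 2871, 2759 and 3189 CPM in cortex and 1605, 1179, 1402 and 1526 CPM in hippocampus (log2 −1.07 ± 0.13, edgeR adjusted p = 0.0246). Dpysl2, which binds tubulin, Clasp2, which stabilises microtubule plus ends, and Tacc1, a coiled-coil protein that acts with microtubules, had log2 fold changes of −0.74, −0.84 and −0.78. Abcg1 (chromosome 17, 31057675 to 31117988), the transporter that hands cholesterol to lipoproteins, stood at 3899, 4667, 4124 and 4827 CPM in cortex and 2324, 2379, 2279 and 2114 CPM in hippocampus. The hippocampal values were nearly level, between 2114 and 2379, and the difference was −0.94 ± 0.11 (edgeR adjusted p = 0.0246). Yme1l1, a protease of the mitochondrial inner membrane, had a log2 fold change of −1.09 ± 0.17.

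The remaining abundant genes act on transcription and RNA. Wtap (chromosome 17, 12966796 to 12994169), a subunit of the complex that writes N6-methyladenosine (m6A) on RNA, stood at 2277, 2112, 1976 and 2224 CPM in cortex and 995, 1054, 1221 and 1063 CPM in hippocampus (log2 −0.99 ± 0.15, edgeR adjusted p = 0.0488). Alkbh5 (chromosome 11, 60536381 to 60558512), a demethylase that erases the same mark, stood at 1634, 1516, 1496 and 1421 CPM in cortex and 675, 704, 558 and 824 CPM in hippocampus (log2 −1.15 ± 0.18, edgeR adjusted p = 0.0495). Writer subunit and eraser fell together, each with hippocampal replicates well under the cortical ones. Nfia, a transcription factor, Zfp691, a zinc finger protein, and Arglu1, a cofactor of splicing and transcription, had log2 fold changes of −0.91, −0.94 and −0.66.

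The promoters of 4 of these genes are printed because the genes fell together and 2 of them hold a motif of microglial transcription factors that was searched for. Of the 17 genes, 13 had an entry among RefSeq promoters on GRCm38.p6, and the first entry of each gene is shown. The 250 bases before the start were searched on both strands for the core of PU.1 sites (GAGGAA) and for AP-1 sites (TGANTCA). Capitals mark a match, and TTCCTC is GAGGAA on the other strand.
Wtap promoter, chr17:12992544-12992793, minus strand: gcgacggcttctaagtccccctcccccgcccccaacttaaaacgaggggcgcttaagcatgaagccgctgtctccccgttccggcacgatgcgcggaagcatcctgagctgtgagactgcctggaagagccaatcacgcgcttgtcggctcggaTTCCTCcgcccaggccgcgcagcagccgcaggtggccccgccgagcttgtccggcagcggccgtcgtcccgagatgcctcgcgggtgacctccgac
Zfp691 promoter, chr4:119174196-119174445, minus strand: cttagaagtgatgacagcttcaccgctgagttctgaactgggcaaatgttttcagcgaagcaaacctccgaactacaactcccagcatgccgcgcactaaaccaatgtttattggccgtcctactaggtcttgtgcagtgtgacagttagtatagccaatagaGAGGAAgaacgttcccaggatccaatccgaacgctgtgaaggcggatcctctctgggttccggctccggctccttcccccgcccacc
Alkbh5 promoter, chr11:60537433-60537682, plus strand: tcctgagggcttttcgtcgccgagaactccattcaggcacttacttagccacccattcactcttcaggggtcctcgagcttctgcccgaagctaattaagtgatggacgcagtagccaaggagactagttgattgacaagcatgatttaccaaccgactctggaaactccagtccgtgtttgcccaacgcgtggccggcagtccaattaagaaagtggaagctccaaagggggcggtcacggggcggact
Notch2 promoter, chr3:98013288-98013537, plus strand: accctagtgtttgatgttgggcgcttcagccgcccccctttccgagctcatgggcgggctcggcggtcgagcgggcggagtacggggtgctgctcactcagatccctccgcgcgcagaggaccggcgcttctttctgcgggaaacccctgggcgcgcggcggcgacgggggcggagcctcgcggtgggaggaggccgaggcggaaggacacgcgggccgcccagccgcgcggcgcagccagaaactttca
The PU.1 core was present in 2 of the 13 genes, Wtap and Zfp691, and in 23.3% of all 32851 promoter windows. The AP-1 motif was present in 0 of the 13 and in 6.75% of all windows. The Wtap and Notch2 windows were 68% and 72% G or C and held 29 and 34 CG pairs, against 53.2% and 13 pairs for Zfp691 and 54% and 14 pairs for Alkbh5.

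The abundant called genes were long. Their median span on the genome was 60.3 kb, against 18.3 kb over all genes tested, and their longest transcripts had a median of 5.63 kb against 3.06 kb. Genes with a mean of at least 500 CPM showed the same order beyond the called ones. Of these 331 genes, 239 had a lower value in hippocampus and 92 a higher one, with a median log2 of −0.55. The median over all 12352 genes was −0.12, and over the 3311 genes between 50 and 500 CPM it was −0.03. The 239 spanned a median of 27.5 kb and the 92 a median of 14.3 kb. Across the 331 genes the log2 fold change had a Spearman correlation of −0.39 with the length of the longest transcript and −0.29 with the span, as a description over genes that share the same libraries.

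The 8 called genes below 500 CPM in cortex are genes of neurons and other glia, and they were close to absent in hippocampal cells. Map2, a microtubule protein of dendrites, stood at 92.8, 66.8, 189 and 262 CPM in cortex and 0, 0, 0.537 and 0 CPM in hippocampus, 1192 against 2 counts (edgeR adjusted p = 0.0268). The ratio of these counts per total was 511 with a 95% exact interval of 141 to 4228, which covers only the error of independent counts. The 1192 cortical counts came from 50 cells. Cplx2, a complexin of synaptic vesicle release, stood at 189.9, 83.99, 266 and 419.7 CPM in cortex and 6.32, 0, 0.806 and 0 CPM in hippocampus (ratio 61.5, 95% exact interval 41.8 to 94.4). Snhg11, a transcript abundant in neurons, was the member best detected in hippocampus, with 10.99, 3.4, 2.96 and 1.7 CPM there and 227, 192, 127 and 276 CPM in cortex (log2 −5.61 ± 0.80, edgeR adjusted p = 0.0444). Spock1, a proteoglycan of neurons, Kif5a, a neuronal kinesin, Ptn, the growth factor pleiotrophin, and Spry2, an inhibitor of receptor tyrosine kinase signalling, had 1 to 3 counts in all hippocampal replicates together and 688 to 1428 in cortex.

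Whole marker lists were ordered the same way. All 27 tested neuronal markers had lower values in hippocampus (2 called), with a median log2 of −7.18, or −6.01 with the 10 genes at 0 counts in a region set to the fold against 3 counts. The list summed to 1631, 1078, 1759.6 and 2426 CPM in cortex and 259.9, 133, 158 and 7.98 CPM in hippocampus, groups that did not overlap. Snap25, a synaptic vesicle fusion protein, had 0 counts in all 4 hippocampal replicates and 56.5, 78.4, 146 and 243 CPM in cortex, at least 292-fold higher against 3 counts over the hippocampal group. All 13 tested astrocyte markers also had lower values (1 called), with list sums of 1231, 569.9, 1451 and 1921 CPM in cortex and 435, 381, 395 and 175 CPM in hippocampus. Clu, a secreted chaperone of astrocytes, was at 0 in all hippocampal replicates. All 8 tested oligodendrocyte markers had lower values as well (0 called), with a median log2 of −5.21, or −4.74 with the gene at 0 counts in a region set to its fold against 3 counts. Their sum was lower in hippocampus in 4 of 4 animals, with 869, 1004, 1103 and 975 CPM in cortex and 797, 815, 925 and 945 CPM in hippocampus. On this scale without TMM the ranges of the regions overlapped. In such sums fewer cells that carry a transcript and less of it per cell cannot be told apart.

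Counted per cell, at least 2 neuronal markers were present in 16.6, 10.7, 35.4 and 27.03% of cortical cells of the 4 animals and in 2.82, 1.45, 2.07 and 1.43% of hippocampal cells. The difference was -20.5 percentage points ± 11.03 (SD of the pairs, n = 4), lower in 4 of 4 animals (exact two-sided permutation p = 0.125 over pairs, the smallest that 4 pairs allow). WT mice had 13.8 to 51.9% such cells in cortex and 0 to 5.52% in hippocampus. When all cells with at least 2 markers of another cell type were removed, 57 genes were called in the same fit. Of the 17 abundant genes, 14 were still past the threshold and the median of their log2 fold changes was −0.94, as before. Only 3 of the 8 neural genes could then be tested, and 0 of them passed the threshold.

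**Figure D3:**
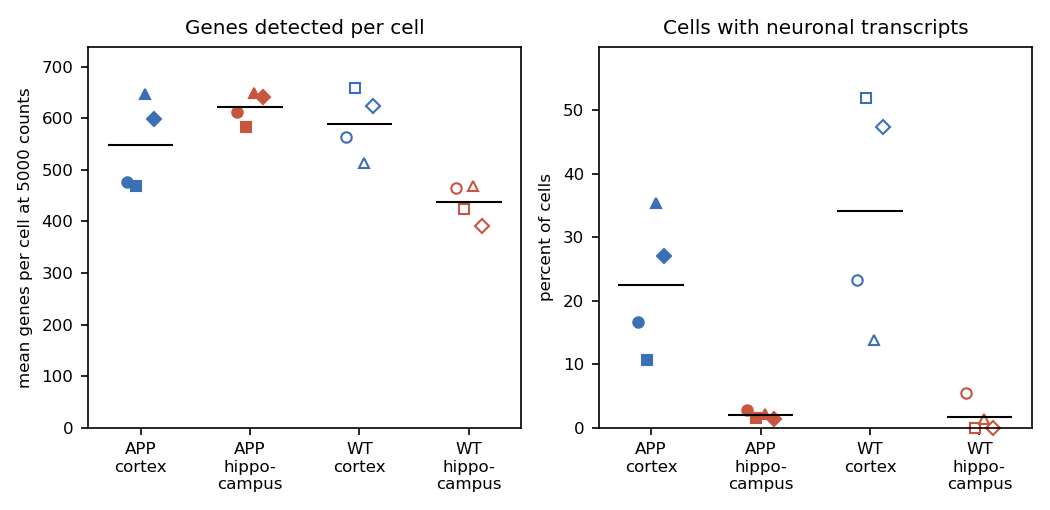
Mean number of genes detected per cell after every cell was thinned to 5000 counts (left) and percent of cells with at least 2 neuronal markers (right) in the 4 replicates of each CD11c-negative group, with the group mean as a line. APP hippocampus lies between 583 and 649 genes and between 1.43 and 2.82% of cells, and APP cortex between 469 and 648 genes and between 10.7 and 35.4% of cells.

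Hippocampal cells yielded somewhat more genes at equal depth. Thinned to 5000 counts, which left out 17 hippocampal and 14 cortical cells, they had a mean of 612, 583, 649 and 642 genes per cell against 476, 469, 648 and 599 in cortex (exact two-sided permutation p = 0.125 over 4 pairs). Without thinning the medians were 713 to 933 genes in hippocampus and 570 to 866 in cortex. In WT mice hippocampal cells had fewer genes than cortical ones, 390 to 468 against 514 to 658. The share of mitochondrial counts was 1.1 to 1.2% in hippocampus and 0.95, 0.903, 1.59 and 1.75% in cortex (exact two-sided permutation p = 0.5 over 4 pairs). The part of these measures in the region difference was not tested. All 25 genes passed the threshold in a fit of all 6 groups of the series without the replicate block, both with genes per cell as a covariate (309 genes called) and without it (341).

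The region difference of the 17 abundant genes was set against that of WT mice. In WT, 15 of the 17 had higher values in hippocampus, with a median log2 of 0.43. Most genes with a mean of at least 500 CPM were also higher in WT hippocampus, 202 of the 239 that had lower values in APP hippocampus and 69 of the 92 that had higher ones, so the order in WT mice is not particular to the 17. The test of the difference between strains, edgeR on all 16 CD11c-negative replicates with the animal as a block, called 98 of 14163 genes (0.692%), 96 of them (0.678%) lower in the APP comparison and 2 higher (0.0141%), while DESeq2 called 773, 266 of them lower and 507 higher. Among these were 16 of the 17, all but Agap2 (log2 difference −1.29 ± 0.57, edgeR adjusted p = 0.921). The APP replicates of this test are those that chose the 17, so this count is not independent of the choice. Averaged over the 17 genes the level was 3099 CPM in APP cortex, 1682 in APP hippocampus, 2671 in WT cortex and 3638 in WT hippocampus. APP hippocampus had the lowest mean of these 4 groups for 17 of 17 genes, while APP cortex had the highest for 3.

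**Figure D4:**
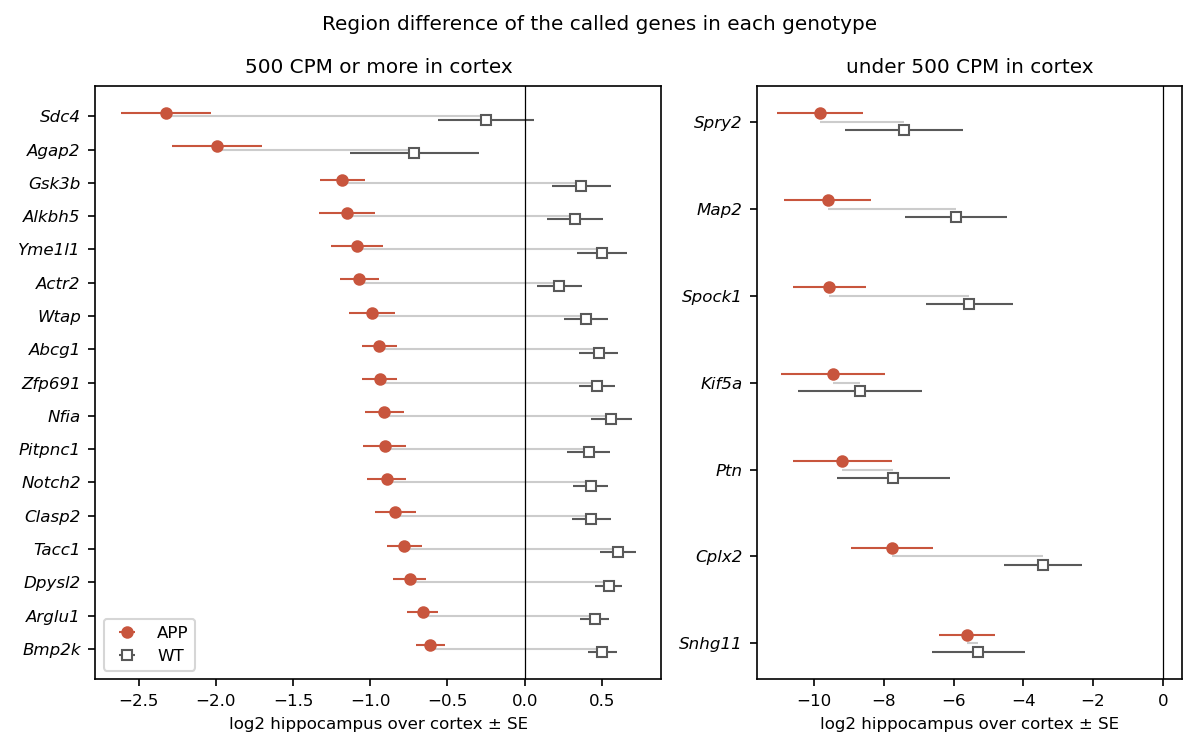
Log2 fold change of hippocampus over cortex ± SE in APP mice (filled circles) and WT mice (open squares) for the 17 called genes with 500 CPM or more in cortex (left) and 7 of the 8 with less (right). On the left 15 of 17 WT values lie above 0 and all APP values below it; on the right both strains lie below 0.

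Dpysl2 had the smallest p of this test. It stood at 7457 ± 429 CPM in WT hippocampus and 5124 ± 542 CPM in WT cortex (SD, n = 4 each), a log2 fold change of 0.55, against −0.74 in APP mice with 6926, 6945, 5213 and 7279 CPM in cortex and 3756, 3654, 3969 and 4270.2 CPM in hippocampus. The difference was −1.30 ± 0.12 (edgeR adjusted p = 3.14e-05). Itpripl1, a membrane protein not called in the APP comparison itself (4715, 4499, 3468 and 3999 CPM in cortex, 2037, 2149, 2476 and 2709 CPM in hippocampus, edgeR adjusted p = 0.0569), followed with a difference of −1.42 ± 0.16. Gsk3b, Abcg1 and Notch2 had differences of −1.56, −1.43 and −1.33, with WT values of 0.37, 0.48 and 0.43. Over all 96 genes the median was −0.89 in APP and 0.52 in WT mice, and 95 of them had opposite signs in the strains. These genes were chosen by that difference in the same replicates, so the signs are not independent of the choice. Of the 331 genes with a mean of at least 500 CPM, 202 were lower in APP and higher in WT hippocampus. The 2 genes called higher were Elf2, a transcription factor, and the predicted gene CT010467.1. None of the 8 neural genes was called for a difference between strains. All 8 had lower values in hippocampus in WT mice too, for example −5.29 for Snhg11 and −5.93 for Map2 on the log2 scale.

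Genes of homeostatic microglia had mostly higher values in hippocampus, without any call with the block. Of 30 genes tested, 26 were higher and 4 lower, with a median log2 of 0.46 (0.33 in WT mice) against −0.12 over all genes (−0.66 in WT mice). At an unadjusted p under 0.05 there were 16 higher and 1 lower, and the replicates did not overlap for 9 and 1. Over all 12352 genes the first pair of counts was 297 and 817, and 2.41% did not overlap in the higher and 5.71% in the lower direction. Cx3cr1, the fractalkine receptor, stood at 2052, 2185, 2211 and 2452 CPM in hippocampus and 1412, 1416, 1444 and 1116 CPM in cortex (log2 0.73 ± 0.15, edgeR adjusted p = 0.0952, and 0.0198 without the block). Cortex of animal 4 was the lowest of the 8 values. Csf1r, the receptor for the microglial survival factors, stood at 2535, 2362, 2561 and 2101 CPM in hippocampus and 1748, 1839.9, 1523 and 1335 CPM in cortex (log2 0.57 ± 0.13, edgeR adjusted p = 0.132, and 0.0475 without the block). Tmem119, given above, and P2ry12, the ADP receptor of microglial processes, had log2 fold changes of 0.54 and 0.34 (edgeR adjusted p = 0.233 and 0.435). Sema4b, a semaphorin, went the other way, with 813, 684, 763 and 746 CPM in hippocampus and 1242, 1374, 1490.1 and 1439.6 CPM in cortex (log2 −0.88 ± 0.17, edgeR adjusted p = 0.0798, and 0.017 without the block). It was the 1 gene of the 30 called for the difference from WT mice (−1.20 ± 0.25, edgeR adjusted p = 0.0231). Summed over the list the level was 39262, 40714, 40527 and 41201 CPM in hippocampus and 28324, 28841, 30452 and 26539.7 CPM in cortex, so every hippocampal replicate was above every cortical one.

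**Figure D5:**
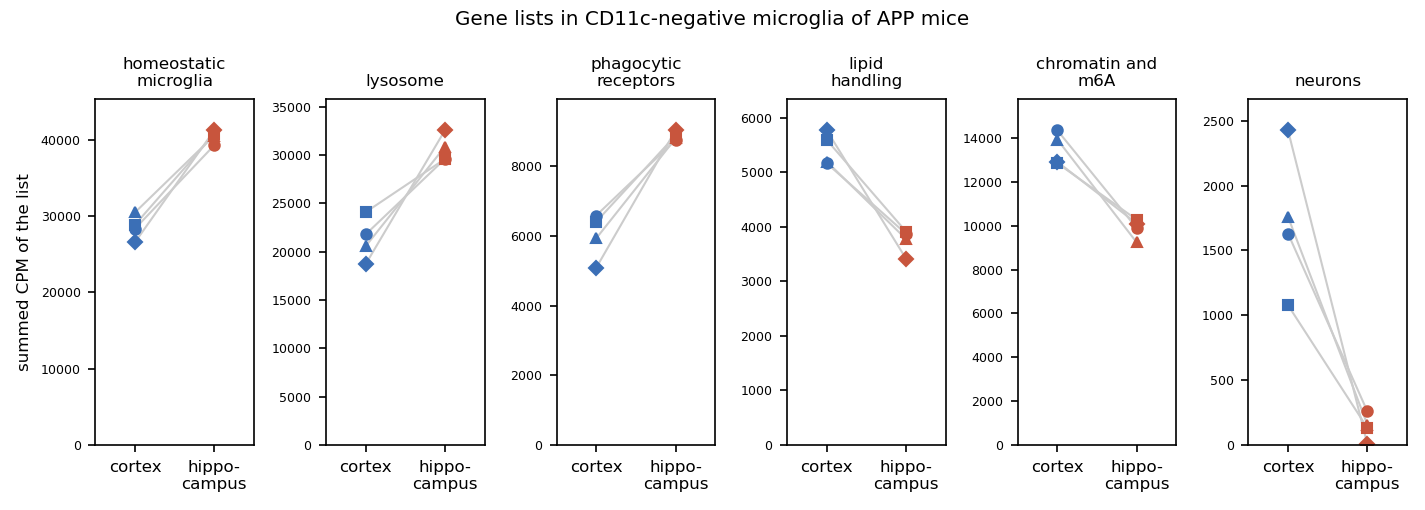
Summed CPM (scaled to the raw library total) of 6 gene lists in cortex (blue) and hippocampus (red) of the 4 animals, each with its own symbol and joined by a grey line, with vertical axes that start at 0. Homeostatic, lysosomal and phagocytic lists were higher in hippocampus in every animal, and lipid, chromatin and neuronal lists lower.

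Lysosomal and phagocytic genes showed the same order. Of 30 lysosomal genes, 23 had higher values in hippocampus (median log2 0.33, 0.32 in WT mice, 0 called). The list summed to 29589, 29584, 30851 and 32549 CPM in hippocampus and 21778, 24079, 20553 and 18690.5 CPM in cortex. Ctsd, the aspartic protease cathepsin D, stood at 4326, 4179, 4787 and 5014 CPM in hippocampus and 3137, 3322, 3182 and 2015 CPM in cortex (log2 0.67 ± 0.16, edgeR adjusted p = 0.132, and 0.0411 without the block). Its log2 was −0.11 when numbers of cells with a count, scaled to their replicate totals, took the place of counts. Unscaled, a mean of 99.3% of hippocampal and 88.9% of cortical cells had a Ctsd count. Grn, the lysosomal growth factor precursor progranulin, stood at 998, 983, 898 and 709 CPM in hippocampus and 406, 735, 345 and 331 CPM in cortex, where animal 2 reached the hippocampal range (log2 1.05 ± 0.24, edgeR adjusted p = 0.125). Gm2a, the activator of ganglioside GM2 breakdown, lay the other way, with 1134, 1519, 1458 and 1286 CPM in hippocampus and 2876, 2665, 1844 and 2306 CPM in cortex (log2 −0.83 ± 0.17, edgeR adjusted p = 0.0952, and 0.0304 without the block). Among 24 phagocytic and pattern recognition receptors 15 had higher values (median 0.40, 0.02 in WT mice, 0 called). Their sums were 8751, 8879.9, 8795 and 9029 CPM in hippocampus and 6586, 6406, 5928 and 5084 CPM in cortex. Fcgr3, an activating IgG receptor, stood at 528, 714, 821 and 875 CPM in hippocampus and 322, 436, 352 and 366 CPM in cortex (log2 0.98 ± 0.24, edgeR adjusted p = 0.16, and 0.0389 without the block). Itgav, an integrin that binds vitronectin, and P2rx7, an ATP-gated channel, were at −0.77 and 1.63 on the log2 scale and did not pass the threshold with or without the block.

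Genes of disease-associated microglia held no call, and their summed level was higher in hippocampus. Of 29 tested, 19 had higher and 10 lower values in hippocampus, with a median log2 of 0.26 (0.36 in WT mice) and 0 called. The list summed to 18103, 20063, 20129 and 21563 CPM in hippocampus and 14512, 14699.8, 13926 and 12760.4 CPM in cortex, groups that did not overlap. It shares Ctsd and Ctsb with the lysosomal list, so the sums of these lists are not separate results. Ctsd alone had means of 4576 CPM in hippocampus and 2914 CPM in cortex. Apoe, the main lipoprotein of the brain, stood at 449, 255, 366 and 67.9 CPM in hippocampus and 388, 271, 276 and 775 CPM in cortex. The groups overlapped for Apoe, and animal 4 was lowest in hippocampus and highest in cortex (log2 −0.58 ± 0.62, edgeR adjusted p = 0.911). Trem2, the lipid-sensing receptor needed for this programme, stood at 1326, 1057, 1471 and 1576 CPM in hippocampus and 1022, 1142, 882 and 1075 CPM in cortex (log2 0.39 ± 0.19, edgeR adjusted p = 0.562). Lpl, a lipase of this programme, was low, with 1.1, 3.4, 15.3 and 0.849 CPM in hippocampus and 103, 107, 20.6 and 19.2 CPM in cortex (edgeR adjusted p = 0.53). Of 11 complement genes 0 were called, and C1qa, a subunit of the C1q recognition protein, stood at 1562, 2817, 1622 and 2769 CPM in hippocampus and 1194, 1624, 1272 and 1205 CPM in cortex (log2 0.68 ± 0.17, edgeR adjusted p = 0.184).

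Lipid handling genes leaned the other way from the lysosome. Of 13 tested, 9 had lower values in hippocampus (median log2 −0.94, 0.05 in WT mice), and 1 was called, Abcg1, where 0.202% of all genes were called lower. Abcg1 lay among the 331 genes with a mean of at least 500 CPM, of which 15 were called lower. The list summed to 3870.3, 3911, 3774 and 3412 CPM in hippocampus and 5164, 5590.3, 5194 and 5767 CPM in cortex. Abcg1 held most of the sum and most of its difference between the regions. Soat1, which esterifies cholesterol, stood at 222, 186, 260.4 and 374 CPM in hippocampus and 718, 549, 299 and 458 CPM in cortex (log2 −0.94 ± 0.36, edgeR adjusted p = 0.486). Among 12 genes of cholesterol synthesis 0 were called. Insig1, which retains the sterol-regulated transcription factor complex in the endoplasmic reticulum, stood at 154, 116, 104 and 79.8 CPM in hippocampus and 516, 407, 341 and 569 CPM in cortex (log2 −2.02 ± 0.36, edgeR adjusted p = 0.06, and 0.0159 without the block).

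Chromatin and m6A regulators had mostly lower values in hippocampus. Of 34 tested, 26 had lower values in hippocampus (median log2 −0.48), and 2 were called, Wtap and Alkbh5, where 0.202% of all genes were called lower. Both lay among the 331 genes with a mean of at least 500 CPM, of which 15 were called lower (median log2 −0.55). The list summed to 9891, 10277, 9239 and 10104 CPM in hippocampus and 14353, 12856, 13934 and 12918 CPM in cortex. Kmt2d, a histone H3 lysine methyltransferase, stood at 1919, 1409.8, 1813 and 2049.8 CPM in hippocampus and 3435, 3133, 2760.2 and 2929 CPM in cortex (log2 −0.78 ± 0.14, edgeR adjusted p = 0.0637, and 0.0224 without the block). For the difference from WT mice 4 of 35 were called, against 0.678% of all genes, all lower in APP: Kmt2d, Wtap, Alkbh5 and Ythdf2, a reader of m6A that was named after its values were seen. All genes called lower in that test were abundant as a set, with a median of 2066 CPM in APP cortex. The share called among genes of like level was not computed, so the 0.678% is not matched for level. Among transcription factors of microglia 0 of 24 were called. Maf, which acts in macrophage identity, and Bhlhe41, a repressor, had log2 fold changes of −0.85 and −0.62 (edgeR adjusted p = 0.204 and 0.159). For the difference from WT mice 1 of 26 of these factors was called, Bhlhe41 (−1.15 ± 0.18, edgeR adjusted p = 0.00162), and Maf was not.

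Other lists gave single genes. Adam10, the protease that cleaves APP at the alpha site, stood at 1602, 1679.9, 2123 and 2093 CPM in hippocampus and 3384, 3092, 3025 and 3525 CPM in cortex, groups that did not overlap (log2 −0.81 ± 0.13, edgeR adjusted p = 0.0528, and 0.0178 without the block). Picalm, a clathrin adaptor at an Alzheimer risk locus, had a log2 fold change of −0.84 ± 0.15 (edgeR adjusted p = 0.066, and 0.0178 without the block). Adam10 was called for the difference from WT (−1.25 ± 0.17, edgeR adjusted p = 0.000354) and Picalm was not (edgeR adjusted p = 0.12). Of the 28 orthologues of risk genes tested, 0 were called. Prnp, whose promoter drives the transgenes, stood at 15.9, 0, 26.3 and 90.01 CPM in hippocampus and 148, 112, 150.1 and 246 CPM in cortex (log2 −3.29 ± 1.13, edgeR adjusted p = 0.414). Its cortical values lay above every hippocampal value. A Prnp count was present in 7 hippocampal and 43 cortical cells. In WT mice Prnp had a lower value in hippocampus too (log2 −7.46, edgeR adjusted p = 0.16).

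Among 36 genes of actin and motility 0 were called with the block. Tmsb4x, the actin monomer binding peptide thymosin beta 4, stood at 2429, 2452, 2619 and 2675 CPM in hippocampus and 1459.5, 1867, 1662 and 1634 CPM in cortex (log2 0.62 ± 0.13, edgeR adjusted p = 0.0952, and 0.0251 without the block). Its log2 was −0.068 when numbers of cells with a count, scaled to their replicate totals, were compared. Unscaled, a mean of 88.3% of hippocampal and 77.2% of cortical cells had a Tmsb4x count. Myh9, the heavy chain of non-muscle myosin II, lay opposite, with 689, 658, 693 and 746 CPM in hippocampus and 1151, 1333, 1460.1 and 1471 CPM in cortex (log2 −0.95 ± 0.17, edgeR adjusted p = 0.0659, and 0.0159 without the block). Actb, the cytoplasmic actin, had a log2 fold change of −0.34 ± 0.07 (edgeR adjusted p = 0.0952). Skil, an inhibitor of TGF-beta signalling, stood at 1492, 1957, 1809.96 and 1739 CPM in hippocampus and 3442, 3182, 2647 and 3282 CPM in cortex (log2 −0.84 ± 0.14, edgeR adjusted p = 0.0528, and 0.0159 without the block).

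Since no gene passed the threshold in the direction of hippocampus with the block, the 5 with the smallest p among those with a higher value there are given as values. Tmsb4x and Cx3cr1 were the first of them. Map3k2, a kinase of stress signalling, stood at 87.9, 128, 179 and 105 CPM in hippocampus and 0, 5.3, 5.63 and 0 CPM in cortex, 1299 against 33 counts (edgeR adjusted p = 0.116, and 0.0475 without the block). Ftsj1, a methyltransferase of transfer RNA, stood at 53.3, 137, 71.5 and 67.1 CPM in hippocampus and 0, 0.252, 2.35 and 0 CPM in cortex, 740 against 6 counts (edgeR adjusted p = 0.119, and 0.0363 without the block). Neither exceeded 5.63 CPM in any cortical replicate. Cyth4, an exchange factor for Arf proteins of blood cells, stood at 583, 816, 729 and 489 CPM in hippocampus and 308, 426, 239.7 and 221 CPM in cortex (log2 1.15 ± 0.26, edgeR adjusted p = 0.119, and 0.0498 without the block).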

How the data were processed

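Single CD11c-negative microglia from hippocampus and cortex of APP mice were profiled, with those of WT mice as the reference of the region difference. The authors deposited a table of raw, unscaled counts for each library, genes by cell barcode. The submitters' processing notes name UMI-tools 0.5.3, HISAT2 2.1.0 and featureCounts 1.6.0, and the builds GRCm38 and mm10. No label says whether reads with the same molecular identifier were merged, and entries of 20 or more held 88.8% of all counts. Counting intervals and floors of 3 counts treat the deposited counts as independent. They do not cover the spread between animals, nor the counting error of molecules if reads were left unmerged.

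Cells needed 200 genes and a mitochondrial share of 20% or less. No doublet caller was run, and counts were summed by animal and region. Groups, regions and animal numbers came from the titles, and genotype tags were used only as an alternative. Where labels do not say that samples came from separate animals beyond that number, p values measure the spread between these samples. Gene names and positions came from GENCODE vM21, which covered all 26348 identifiers.

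The 8 replicates were fitted in R 4.3.3 by edgeR 4.0.16, with limma 3.58.1 loaded: TMM scaling, filterByExpr, animal as a block, quasi-likelihood F test, Benjamini-Hochberg adjustment, threshold 0.05. The fit left 3 residual degrees of freedom (prior 6.77) and had a common biological coefficient of variation of 1.23. Same-numbered samples did not deviate together: the correlations of their deviations over 3642 genes were 0.0014, 0.019, −0.014 and −0.0088, and the pairing rests on the titles. The fits were tested on simulated data with known changes. At a log2 change of 1 the region fit recovered 1 of 100 genes from 50 CPM and 1 of 12 from 500 CPM. At a log2 change of 3 it recovered 55 of 100 and 11 of 11. The fit of the difference between strains recovered 0 of 100 and 0 of 10 at a change of 1. At a change of 3 it recovered 19 of 100 and 10 of 12. False calls numbered 2 in the region fit and 1 in the other. Cell measures were compared with exact permutation tests (Python 3.11.15, scipy 1.17.1).

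Genes were named by a rule: the 14 largest changes in each direction among called genes with at least 50 CPM and replicates that did not overlap in all 4 animals, the 5 smallest p values where a direction had none, the other called genes, fixed genes, the 5 smallest p values for the difference between strains, and the 4 most abundant and 3 smallest p values of each of 34 gene lists. A part of these is printed, and some results are not reported here. The comparison, the lists and the rule were chosen with earlier results of these data known. Alternatives covered scaling, gene filter, block, tool (DESeq2 1.42.0, limma voom), cell filters, thinning and leaving out each animal. Promoters are RefSeq entries on GRCm38.p6.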

Additional observations from a re-analysis of the deposited data

Results flagged for a closer look

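In 8 of 148 groups of 4 replicates 1 animal stood far from the other 3, about the 1 in 20 that chance gives. Animal 3 was low in cortex for Dpysl2 (5213 CPM, the others 6926 to 7279) and Clasp2 (2493 CPM). Animal 4 was high in hippocampus for Clasp2 (1810.3 CPM), Bmp2k (4762 CPM) and Tacc1 (2487 CPM), and each of these values still lay below every cortical value. Animal 4 was low in cortex for Cx3cr1 (1116 CPM) and Ctsd (2015 CPM). Animal 2 was high in hippocampus for Itgax (32.7 CPM), the gene of the sort gate, with 2.42 CPM as the next highest replicate.

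The difference between hippocampus and cortex itself differed between APP and WT mice for 98 genes in the edgeR test of that difference. The smallest p values belonged to Dpysl2 (log2 difference −1.30), Itpripl1 (−1.42), Arglu1 (−1.13), Zfp691 (−1.42) and Bmp2k (−1.13), each lower in APP and higher in WT hippocampus. The first number of the titles differs between all 4 of these groups, so a difference between library sets cannot be told apart from one between the groups.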

How the results depend on the processing

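The 24 called genes compared by name kept their direction in every alternative in which they were tested, and the count moved widely. The fit with the replicate block called 25 genes, and the fit with no replicate block 234. Other counts for the region comparison were 341 (6 groups, no block), 267 (6 groups with the block), 231 (no gene filter), 1016 (DESeq2), 266 (limma voom), 393 (cells with a count), 57 (without cells with markers of other cell types), 67 (cells with at least 500 genes), 141 (totals thinned to equal), 309 (genes per cell as a covariate) and 0 of 9343 (only libraries tagged tg, edgeR, with 919 at an unadjusted p under 0.05). RLE scaling gave 20. With the animal block, leaving out 1 animal gave 0 to 12 calls, with 702 to 864 genes at an unadjusted p under 0.05, and with no replicate block 0 to 2, an alternative chosen after seeing the data. The 17 abundant genes had a median log2 between −0.99 and −0.83 in all these settings except the count of cells (−0.36). Calls for the difference between strains numbered 150 (6 groups), 773 (DESeq2), 150 (limma voom) and 282 (cells with a count) against 98. They numbered 71 with RLE scaling, 88 without cells with markers of other cell types, and 76 to 95 with 1 animal left out. Under RLE scaling the median difference of all genes moved from 0.45 to 0.60. Tested without pairing, the difference of −20.5 percentage points in cells with neuronal markers passed the threshold (exact permutation p = 0.0286). Signs turned for Tmsb4x (−0.068) and Ctsd (−0.11) in the count of cells, where numbers of cells were scaled to their replicate totals. The unscaled share of cells with a count was higher in hippocampus for both genes. The sign also turned for Apoe without animal 4 (0.17, and 0.21 with no block, in a range from −0.98 over the animals left out). The cause was not tested.

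With 4 replicates a side and 3 residual degrees of freedom, a gene that is not called is not shown to be equal between the regions.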

Other observations

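Other gene lists held 0 called genes between hippocampus and cortex of the APP mice in the edgeR fit with the block. Cytosolic ribosomal protein genes had 54 of 88 members with higher values in hippocampus (median log2 0.15) and summed to 15743, 16697, 15833 and 14397 CPM there and 11861, 11250.1, 12118 and 12114 CPM in cortex. Rps9, of the small ribosomal subunit, stood at 494, 504, 493 and 487 CPM in hippocampus and 183, 322, 180.1 and 153 CPM in cortex (log2 1.30 ± 0.31, edgeR adjusted p = 0.142, and 0.0396 without the block). Transcripts of the mitochondrial genome had 30 of 32 members with lower values (median log2 −2.002), but their sums overlapped, with 11997, 11227, 10963 and 11595 CPM in hippocampus and 9502, 9026, 15865 and 17449.9 CPM in cortex, and animals 1 and 2 had the higher sum in hippocampus. Of these, mt-Nd6 of respiratory complex I stood at 244, 154, 127 and 351 CPM in hippocampus and 296, 226, 811 and 1189 CPM in cortex, where animals 3 and 4 were high (edgeR adjusted p = 0.374), and mt-Co2 of complex IV had a log2 fold change of −0.91 ± 0.32 (edgeR adjusted p = 0.436). Nuclear genes of oxidative phosphorylation had 23 of 33 lower values (median −0.34), and the glycolysis and hypoxia list 10 of 18 (median −0.11).

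Immune lists had medians on both sides of 0. They were −0.74 over 16 interferon response genes, 0.04 over 13 MHC class I genes, 0.50 over 6 MHC class II genes, −0.33 over 12 cytokines and chemokines, −0.17 over 14 immediate early genes and −0.19 over 14 cell cycle genes. B2m, the light chain of MHC class I, stood at 1182, 1791, 1151 and 1400.2 CPM in hippocampus and 1512, 1924, 1688 and 1914 CPM in cortex (edgeR adjusted p = 0.527). C5ar2, a receptor of complement C5a, stood at 956, 618, 1083 and 937 CPM in hippocampus and 1574, 1442, 1342 and 1714 CPM in cortex, and was called only for the difference from WT mice (−1.70 ± 0.28, edgeR adjusted p = 0.00199). Purinergic genes had 6 of 8 higher values (median 0.33), and TGF-beta genes 9 of 16 (median 0.30). Itgb5, a homeostatic integrin, stood at 838, 751, 865 and 809 CPM in hippocampus and 843, 218, 232 and 326 CPM in cortex, where animal 1 alone reached the hippocampal level (edgeR adjusted p = 0.213).

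Markers of further cell types gave 0 calls. Endothelial and mural markers summed to 384 to 639 CPM in hippocampus and 200.5 to 524 CPM in cortex, lymphocyte markers to 541 to 1013 and 410.1 to 762 CPM, and dendritic cell markers to 7.98 to 118 and 23.3 to 127 CPM. Red cell markers were at 0 in hippocampus and reached 280.3 CPM in cortex of animal 2. Genes of neuron position within cortex or hippocampus had 10 of 11 lower values. Among them Cux2, a factor of upper cortical layers, stood at 69.8, 89.1, 98.6 and 38.2 CPM in hippocampus and 259.7, 316, 304 and 575 CPM in cortex (log2 −2.27 ± 0.49, edgeR adjusted p = 0.107, and 0.0202 without the block).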
